A study of Mus musculus with 4 samples.

Results

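Pou5f1, Sox2 and Nanog encode transcription factors of the core pluripotency network of mouse embryonic stem cells, and their loci are described here in open-chromatin data. A locus is the gene with 150 kb on either side of it, and its members are the ATAC-seq peaks listed there. Peaks of all 4 libraries that overlapped by at least 1 bp were merged into regions, of which 213 of 208211 lay at the 3 loci: 65 at Pou5f1, 67 at Sox2 and 81 at Nanog. ATAC-seq cuts accessible DNA with a transposase that inserts sequencing adapters, so a peak marks a stretch where chromatin was open. Mouse embryonic stem cells were profiled in 2 libraries of the wt genotype and 2 of Hox-/-. According to the series title, Hox-/- cells lack the function of every Hox gene. Both genotypes were grown with 10% serum, LIF at 100 ng/ml, the GSK-3 inhibitor CHIR99021 at 3 µM and the MEK inhibitor PD0325901 at 1 µM. Each library was made from 50000 tagmented cells and amplified for 12 PCR cycles. The sources used here do not say how many clones stand behind each genotype, or whether the 2 libraries of a genotype came from separate cultures, so the spread between them may be technical.

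Pou5f1 encodes Oct4, a POU-domain factor that often binds DNA together with Sox2, an HMG-box factor, at adjoining octamer-like and SOX sites. Nanog is a homeodomain factor that stabilises self-renewal. These factors occupy enhancers of their own genes and of each other's genes, and inhibition of MEK and GSK-3 with LIF holds mouse cells in the naive state in which this circuit is active. In that state Pou5f1 is driven mainly by a distal upstream enhancer, and a nearer, proximal enhancer takes over in the primed state. Sox2 depends on a distal control region far downstream, and Nanog has an enhancer a short way upstream besides more remote ones.

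The 250 bases before the annotated start of each gene are printed because the start peaks lie on them and because they hold motifs of the factors themselves. Pou5f1 and Nanog have 2 annotated starts each, and the window is that before the first, where the gene begins. They are RefSeq sequences of GRCm38.p6, read 5′ to 3′ on the + strand, from chr17:35505782-35506031, chr3:34649745-34649994 and chr6:122707239-122707488. Capitals mark motif matches on either strand.
Pou5f1: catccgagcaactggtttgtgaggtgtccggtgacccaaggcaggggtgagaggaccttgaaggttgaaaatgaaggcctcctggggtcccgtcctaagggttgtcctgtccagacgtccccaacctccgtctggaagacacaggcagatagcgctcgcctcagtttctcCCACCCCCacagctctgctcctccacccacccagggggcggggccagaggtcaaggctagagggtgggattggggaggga
Sox2: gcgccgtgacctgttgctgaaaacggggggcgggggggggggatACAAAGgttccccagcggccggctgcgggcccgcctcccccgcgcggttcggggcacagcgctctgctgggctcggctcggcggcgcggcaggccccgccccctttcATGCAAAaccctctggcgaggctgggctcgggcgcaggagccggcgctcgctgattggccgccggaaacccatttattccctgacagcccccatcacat
Nanog: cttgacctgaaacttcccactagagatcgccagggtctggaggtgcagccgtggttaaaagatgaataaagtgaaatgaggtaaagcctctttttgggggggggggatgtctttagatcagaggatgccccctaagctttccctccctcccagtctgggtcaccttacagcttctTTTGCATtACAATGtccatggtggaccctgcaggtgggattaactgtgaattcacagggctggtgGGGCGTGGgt
Both strands were searched for 6 motifs: ATGCAAA and ATGCTAA, bound by POU factors, CATTGT and CTTTGT, bound by SOX factors, AAGGTCA, bound by Esrrb, and GGGNGTGG, bound by Klf factors. Positions are counted back from the annotated start. The Nanog window held a POU match from −75 to −69 and a SOX match from −67 to −62, with 1 base between them, and a Klf match from −10 to −3. CATTGT and ATGCAAA in this order and at this spacing, on either strand, were found in 2 of 32851 annotated windows of this length (0.00609%), and both were windows of Nanog, which has 2 overlapping annotated starts. The Sox2 window held a POU match from −99 to −93 and a SOX match from −206 to −201, far apart. The Pou5f1 window held neither, and its only match was a Klf motif from −80 to −73. Single matches are common: over all windows, ATGCAAA was found in 4.12%, ATGCTAA in 2.56%, CATTGT in 10.7%, CTTTGT in 16.5%, AAGGTCA in 4.08% and GGGNGTGG in 15.9%. A match describes letters, not binding. GC content was 62.0% for Pou5f1, 72.0% for Sox2 and 52.0% for Nanog, against a median window of 52.4%.

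In wt, replicate 1 listed 213705 peaks and replicate 2 listed 216795, while the Hox-/- lists had 191704 (replicate 1) and 200214 (replicate 2). Relative depth, read from the lowest background at the peaks, was 0.941 to 1 of the deepest library in 3 of them and 0.639 in Hox-/- replicate 1. This library is therefore set apart wherever a count turns on it. Between the outermost Hox genes of the 4 Hox clusters the wt lists had 183 and 188 peaks, and the Hox-/- lists only 6 and 4, which matches the labels. All 10 stem cell markers examined had a peak within 1 kb of a gene end in every library. Of 10 fibroblast markers, which would show feeder cells, 5 had one in every library, against 67.1% of all protein-coding genes. The 5 were Col1a1, Col1a2, Thy1, Twist2 and Prrx1. Dcn had one in wt replicate 1 only, and Col3a1, Fap, Postn and Lum had none in any. Peaks at gene ends are not expression.

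The number of listed peaks overlapped between the genotypes at each locus. Pou5f1 had 68 and 71 peaks in the wt libraries, in order of replicate number, and 59 and 69 in those of Hox-/-. At Sox2 there were 66 and 68 in wt against 56 and 68, and at Nanog 97 and 95 against 87 and 97. Hox-/- replicate 1, the shallowest library, was lowest at every locus. The means were 69.5 ± 2.12 and 64.0 ± 7.07 at Pou5f1 (SD, n = 2), a difference of −5.5 peaks with a two-sided exact permutation p of 0.67. At Sox2 they were 67.0 ± 1.41 and 62.0 ± 8.49, a difference of −5.0, and at Nanog 96.0 ± 1.41 and 92.0 ± 7.07, a difference of −4.0, both with an exact permutation p of 1.0. Adjusted over the 3 loci, each p was 1.0. With 2 libraries against 2, this test cannot give a p below 0.33. Without Hox-/- replicate 1 the differences became −0.5, 1.0 and 1.0 peaks. The overlap depended on the threshold: among peaks with a −log10 q of at least 5, both Hox-/- libraries lay below both wt libraries at all 3 loci, by −6.0, −7.5 and −8.5 peaks, each with the smallest exact permutation p of 0.33. At that threshold 56.0% of all genes had fewer peaks in both Hox-/- libraries. With every listed peak, 48.0% of 21887 genes had fewer peaks in both Hox-/- libraries than in either wt library, and 2.49% had more. None of the 3 members was in either class.

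**Figure D1:**
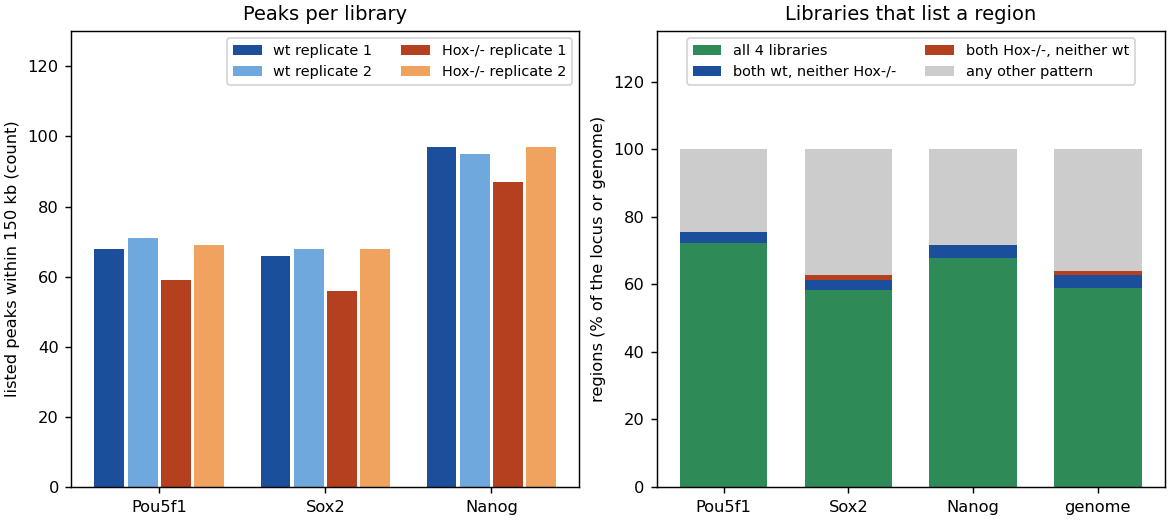
Peaks listed in each library at each locus, and regions by the libraries that list them. Hox-/- replicate 1 is lowest at all 3 loci and Hox-/- replicate 2 lies at 69, 68 and 97 peaks, within 2 peaks of a wt library; most regions are listed in all 4 libraries.

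Most regions were shared by all 4 libraries. This held for 47 of 65 at Pou5f1 (72.3%), 39 of 67 at Sox2 (58.2%) and 55 of 81 at Nanog (67.9%), against 59.0% of all regions in the genome. Regions listed in both wt libraries and neither Hox-/- library numbered 2, 2 and 3, or 3.29% of the 213, against 3.83% in the genome. The reverse class held 1 region, at Sox2, or 0.469% against 1.23%. The wt-only share is near the background, and the reverse class is too small to compare. The share listed in all 4 libraries is above the background at Pou5f1 and Nanog and near it at Sox2. None of these differences was tested.

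The region absent from Hox-/- that lay nearest to a member gene was chr3:34647846-34648058, within the long noncoding RNA gene Sox2ot, with summits at −2046 and −2056 bp from the Sox2 start. It ranked 129094 and 108127 in the wt libraries, where rank 1 is the peak with the lowest p-value in its list, and its folds over local background were 2.43 and 2.73. At Nanog, chr6:122694586-122694885 ranked 137960 and 177588, with summits at −12735 and −12719 bp. The other wt-only regions were chr3:34740097-34740364, chr6:122655163-122655386, chr6:122854655-122854887 in C3ar1, chr17:35516323-35516577 in Tcf19 and chr17:35471249-35471524 in H2-Q10. Their ranks ran from 130631 to 198235. The Hox-/- only region, chr3:34800757-34801115, lies near the outer edge of the Sox2 window and ranked 189407 and 130259. No rank in either class was better than 108127.

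Strong regions, here those among the 50000 strongest peaks of every library, numbered 13 at Pou5f1, 11 at Sox2 and 22 at Nanog, 21.6% of the 213 against 17.9% of all regions. Among the 10000 strongest in every library were 1, 4 and 6, or 5.16% against 3.73%. The best rank reached by any region missing from at least 1 library was 107337 at Pou5f1, 81963 at Sox2 and 90522 at Nanog. So none of the 69 regions of the 3 loci among the 50000 strongest of any library was missing from another, as were 42 of 54186 over the genome (0.0775%).

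**Figure D2:**
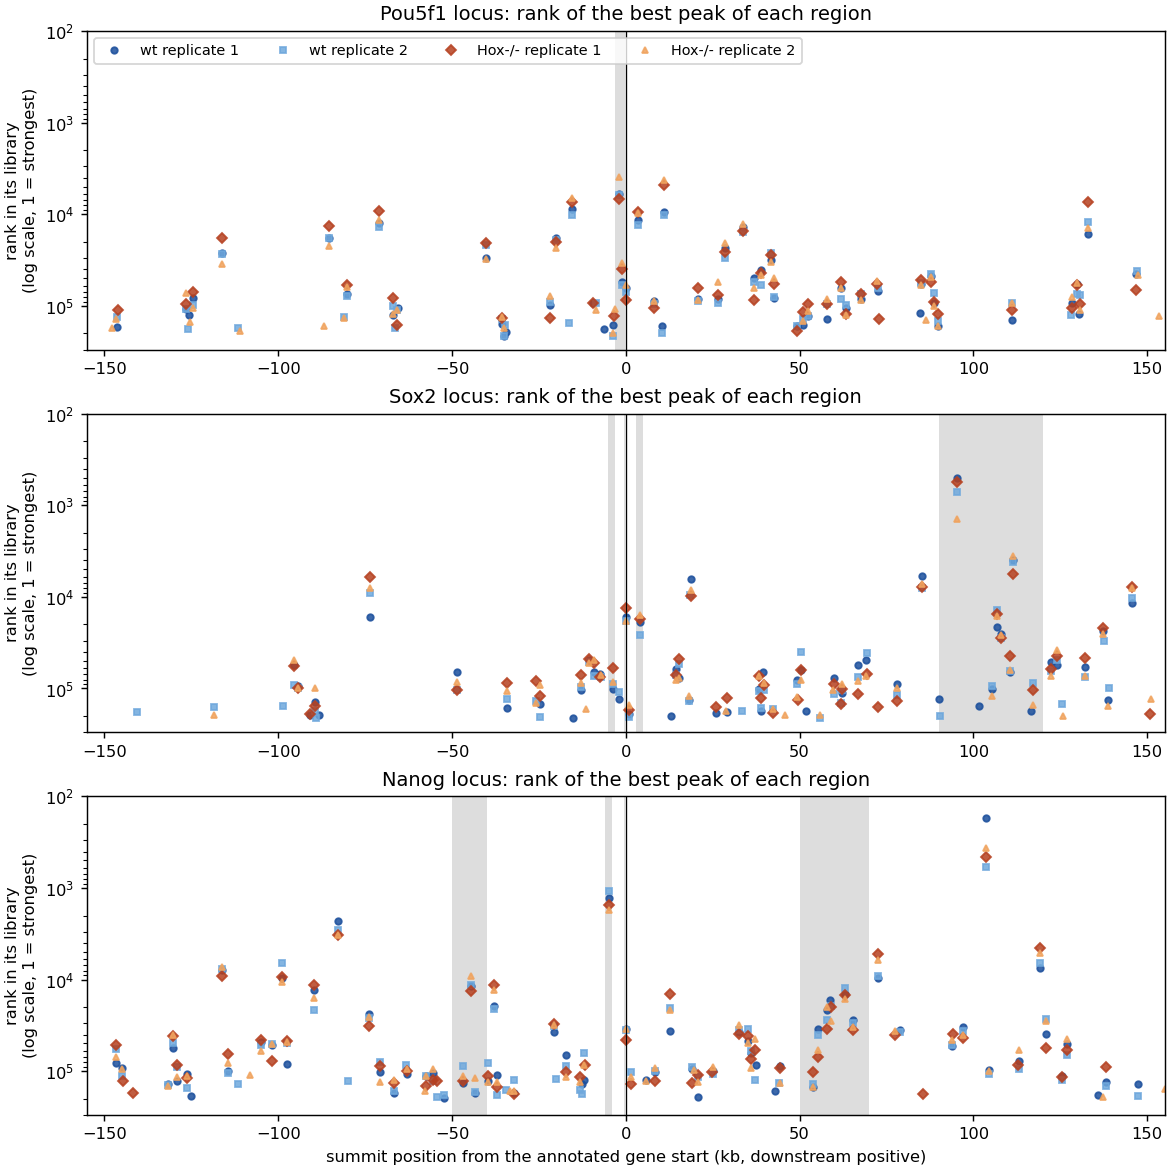
Every listed region at the 3 loci by distance from the gene start (x axis, kb) and by its rank in each library (y axis, log scale, strongest at the top). The strongest points lie at about −2 kb of Pou5f1 (in Hox-/- replicate 1 at 10952 bp downstream), 95 kb downstream of Sox2, and at −5 kb and about 104 kb downstream of Nanog.

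At the Pou5f1 locus (chr17:35506032-35510777, + strand) the strongest region in 3 of the 4 libraries lay in the distal upstream enhancer window and not at the start. In Hox-/- replicate 1 a region near Tcf19 ranked ahead of it. The enhancer region covered chr17:35503811-35504451, inside the noncoding gene Gm32362, with summits from −1996 to −1983 bp. Its ranks were 5949 and 6152 in wt and 6750 and 3901 in Hox-/-, and its folds over local background 6.91, 6.94, 6.33 and 7.54 in the same order. The genotypes overlapped. The summit pileup, which is the number of fragments stacked at the summit as recovered from fold and p-value, is divided here by each library's background floor to set depth aside. It was 80.7 and 83.8 times the floor in wt and 84.9 and 88.2 in Hox-/-.

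A second region, chr17:35504553-35505440, lay between the distal enhancer and the start, with summits at −1108 and −1118 bp in wt and −1140 and −1139 in Hox-/-. This is the side on which the proximal enhancer lies. It ranked 54244 and 59815 in wt and 40032 and 34279 in Hox-/-, and its pileup was 38.6 and 38.3 times the floor against 48.2 and 45.5. Both Hox-/- libraries were thus ahead of both wt libraries, an order found at 21.5% of the 122787 regions shared by all libraries. In each of the 4 libraries it stood far behind the distal region.

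At the Pou5f1 start itself the peak was modest. It ranked 64407 and 69679 in wt and 86261 and 58837 in Hox-/-, with folds of 2.67, 2.6, 2.2 and 2.65. Between 20 and 28 other listed regions of the locus ranked ahead of it, among 49 to 56 listed per library. Its pileup over the floor was nonetheless nearly constant, at 34.9, 35.2, 33.1 and 35.1. The local background there was 13.0 to 15.0 times the library floor, and at the distal enhancer it was 11.6 to 13.2 times. Of the 250 bases printed above, peaks covered 179 and 176 in wt and 207 and 200 in Hox-/-. The summits lay from −77 to −54 bp, that of Hox-/- replicate 1 inside the Klf match and the others after it.

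Inside the Pou5f1 gene, chr17:35509305-35510088 was far stronger than the start. Its summits lay 3500 to 3517 bp after the start, and it ranked 11568 and 12950 in wt and 9551 and 9781 in Hox-/-, with both Hox-/- ranks ahead. The pileups, 60.2, 59.1, 69.8 and 61.7 times the floor, ran in the same order. Upstream, chr17:35490315-35490862 ranked 8668, 10165, 7306 and 6660 and lies in no annotated gene. The remaining leading regions belong to neighbours. The region over the adjoining ends of Tcf19 and Cchcr1, chr17:35516682-35517336, ranked 9405 and 10177 in wt and 4826 and 4194 in Hox-/-, with pileups of 55.4 and 53.8 against 72.5 and 71.1 times the floor. The genotypes did not overlap there, and the difference was not tested. Both Hox-/- ranks were ahead, as inside Pou5f1, an order found at 21.5% of shared regions over the genome. With ranks as percentages of the list length that share was 11.7%. The last, chr17:35434516-35435366, ranked 12415, 13900, 9290 and 11518 near H2-Q7. H2-Q4, H2-Q6, H2-Q7 and H2-Q10 are similar major histocompatibility genes, and how reads with several matches were treated is not given in the sources used here, so peaks among them are uncertain.

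Sox2 (chr3:34649995-34652461, + strand) is the only protein-coding gene in its window, and its strong regions were nearly all downstream: 9 lay downstream and 1 upstream of the gene. The strongest, chr3:34744908-34745889, had its summit 95369 to 95380 bp after the start, in no annotated gene, within the window set for the distal control region. Its ranks were 501 and 713 in wt and 562 and 1414 in Hox-/-, and its folds 17.8, 17.3, 17.1 and 16.3. The pileup over the floor was 92.1 and 92.0 in wt and 100 and 77.0 in Hox-/-, so that the Hox-/- libraries lay on either side of wt.

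Further out in the same 90 to 120 kb window stood a second group of regions. The strongest of them, chr3:34761039-34761696, had summits 111340 to 111353 bp from the start and ranked 3949 and 4162 in wt and 5557 and 3567 in Hox-/-. Its pileup was 99.5, 103, 98.1 and 95.9 times the floor, which is about that of the region at 95 kb, while its folds were only 6.63, 6.56, 5.99 and 7.09. The local background was 111, 110, 77.3 and 98.8 fragments here and 37.7, 36.3, 27.0 and 33.9 there. Next to it, chr3:34756552-34757084 ranked 21337, 13791, 15271 and 16167, and chr3:34757781-34758242 ranked 25324, 28257, 28064 and 25916. Of the 6 regions of the window shared by all libraries, 1 had both Hox-/- ranks ahead, against 21.5% of shared regions over the genome, and 0 had both wt ranks ahead, against 19.6%. As percentages of the list length, 0 were ahead in either direction. With every listed peak counted, the window held 9 and 8 peak intervals in wt and 6 and 7 in Hox-/-. The wt-only region chr3:34740097-34740364, named above, lies in it, with summits 90237 and 90276 bp from the start. No share over like windows of the genome was taken, and the part of list length was not tested.

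By rank, the Sox2 start had the strongest start peak of the 3 genes in every library. It ranked 16734 and 18272 in wt and 13059 and 18122 in Hox-/-, with 6 to 8 regions of the locus ahead of it, and pileups of 46.2, 47.2, 55.8 and 42.5 times the floor. Its region, chr3:34648880-34650341, was the widest of the locus at 1462 bp. The interval over the summit spanned 1462 and 1058 bp in the wt lists. In Hox-/- it spanned 469 and 1383 bp, and the narrow one is that of the shallow library. The summits, from −71 to −57 bp, lay after the POU match of the promoter window, which was covered by peaks in full in all 4 libraries.

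The 2 enhancers flanking Sox2 differed in strength. The upstream one, with summits from −3624 to −3596 bp, was weak, with ranks of 100545 and 88857 in wt and 59514 and 85309 in Hox-/-. The downstream one, 4040 to 4054 bp after the start, ranked 18566 and 26320 in wt and 17236 and 15672 in Hox-/-. In both windows the Hox-/- ranks were ahead of the wt ranks, an order found at 21.5% of shared regions over the genome. It did not hold with ranks as percentages of the list length. These were 47.0% and 41.0% in wt against 31.0% and 42.6% upstream, and 8.69% and 12.1% against 8.99% and 7.83% downstream. Their pileups were 16.2 and 18.7 against 24.5 and 16.7 times the floor upstream and 42.9 and 38.9 against 48.4 and 43.6 downstream, so on that measure the genotypes overlapped at the upstream enhancer. The other leading regions of the locus were chr3:34734783-34735462, with ranks of 5861, 7929, 7838 and 7225, chr3:34668364-34668864 in Sox2ot, with 6339, 9457, 9863 and 8310, and chr3:34795313-34796081, with 11686, 10342, 7820 and 8057.

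Nanog (chr6:122707489-122714633, + strand) lay in the densest of the 3 neighbourhoods. Its upstream enhancer, chr6:122702277-122703316, had 2 summits in every library and ranked 1282 and 1080 in wt and 1529 and 1722 in Hox-/-. The folds were 8.62, 8.98, 8.76 and 8.73, and the pileups 116, 124, 117 and 106 times the floor. Both wt ranks were ahead, an order found at 19.6% of shared regions, but the pileups of the genotypes overlapped. The main summit lay from −4821 to −4808 bp.

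The Nanog start peak ranked 35112 and 35684 in wt and 45322 and 34910 in Hox-/-, with folds of 3.45, 3.46, 3.1 and 3.45. The local background was 104 and 101 fragments in wt and 65.5 and 92.4 in Hox-/-, close to the 99.3, 95.6, 62.7 and 88.2 at the stronger upstream enhancer. From 17 to 23 regions of the locus ranked ahead of the start. Its summits lay from −16 to −6 bp, in or just before the Klf match, and the peak covered the whole printed window with its POU and SOX pair in all 4 libraries. The pileups were 48.3 and 50.3 times the floor in wt and 43.0 and 43.6 in Hox-/-. As percentages of the list length the ranks were 16.4% and 16.5% in wt and 23.6% and 17.4% in Hox-/-. On these 2 measures wt was ahead, while the ranks themselves overlapped. By percentage, this order was found at 31.3% of shared regions over the genome, and it was not tested.

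Several more remote regions of the Nanog locus ranked ahead of the start in every library. The leading one, chr6:122810578-122811631, lay in no gene between Slc2a3 and Foxj2, with its summit 103531 to 103555 bp after the start, and ranked 174, 588, 457 and 368. It was the best-ranked region of the 3 loci in each library, with pileups of 112 and 102 times the floor in wt and 108 and 105 in Hox-/-, below those of the upstream enhancer. On the other side, chr6:122624325-122624995 near Dppa3 ranked 2291, 2877, 3281 and 3233. The upstream window 40 to 50 kb away had its best summit from −44458 to −44431 bp, with ranks of 11793, 11600, 13347 and 9255. Leading regions also lay in neighbours: chr6:122825968-122826806 in Foxj2 ranked 7433, 6667, 4478 and 5166, and chr6:122590894-122591723 in Apobec1 ranked 7967, 7725, 9078 and 7240.

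The window 50 to 70 kb downstream of the Nanog start lies within Slc2a3, which encodes a glucose transporter. Its best region, chr6:122770198-122770891, ranked 14476 and 12349 in wt and 14631 and 16284 in Hox-/-, with pileups of 53.9 and 58.5 against 53.5 and 45.2 times the floor. At chr6:122762531-122762893 the ranks were 34969 and 40759 against 69460 and 59522, and the pileups 39.8 and 37.3 against 27.9 and 25.8. In all, both wt ranks were ahead in 4 of the 6 shared regions of the window and both Hox-/- ranks in 0, orders found at 19.6% and 21.5% of shared regions over the genome. With ranks as percentages of the list length these counts were also 4 and 0, against 31.3% and 11.7%. Just outside the window, chr6:122779703-122780411, also in Slc2a3, had the opposite order, with ranks of 9639 and 9147 in wt and 5233 and 6132 in Hox-/-. This last region was chosen after its values were seen. Neighbouring regions are not independent, and the order of ranks was not tested.

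**Figure D3:**
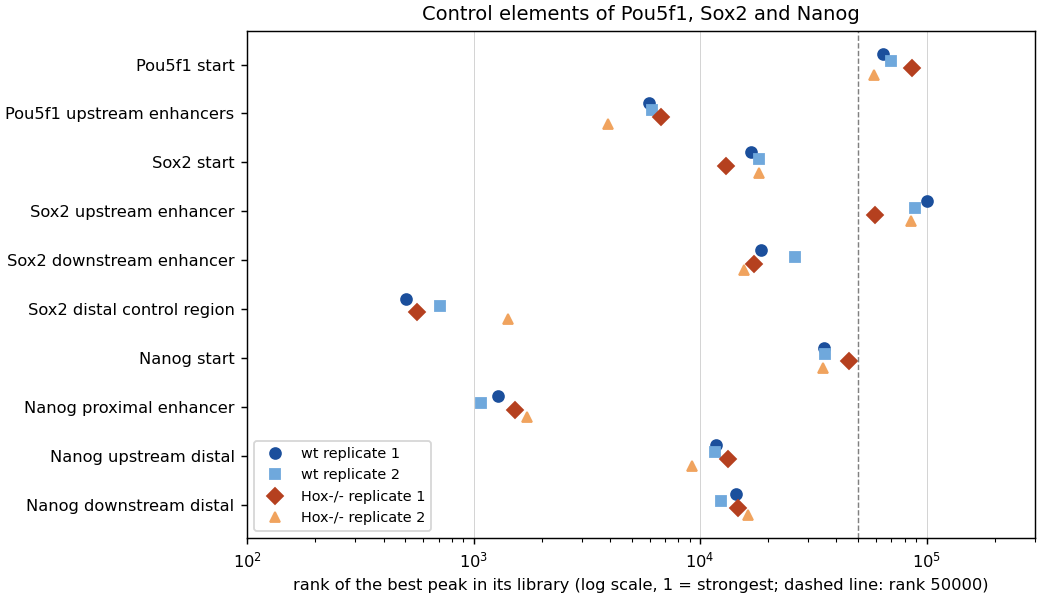
Rank of the best peak in each of the 10 element windows, by library (log scale). The spread between elements is far wider than that between libraries: ranks run from 501 to 1414 in the Sox2 distal window and from 59514 to 100545 in the Sox2 upstream window.

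All 10 element windows held a peak in each of the 4 libraries. Summits of the same element fell within 10 to 43 bp of each other across libraries. The windows are up to 30 kb wide and no share over like windows of the genome was taken. In 8 of the 10 the best peak was among the 50000 strongest in every library, the exceptions being the Pou5f1 start and the Sox2 upstream enhancer. Ranked by fold over local background in place of p-value, only 3 were: the Sox2 distal window, the Nanog upstream enhancer and the Nanog window 40 to 50 kb upstream. At all 3 genes the start peak was weaker than the strongest enhancer in every library.

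Ranks of the regions were compared between libraries. Spearman correlations across shared regions between a wt and a Hox-/- library were 0.908 to 0.945 at Pou5f1 (47 regions), 0.852 to 0.908 at Sox2 (39) and 0.914 to 0.934 at Nanog (55), against 0.912 to 0.922 over the genome. The wt pair gave 0.951, 0.903 and 0.917 at these loci and the Hox-/- pair 0.909, 0.936 and 0.932. At Sox2 every value between genotypes was thus below the genome range and below the Hox-/- pair, and at Pou5f1 each was below the wt pair. These are descriptions across sites that share libraries and local sequence. The Jaccard index, the bases covered in both lists over those covered in either, averaged 0.733 between genotypes at Pou5f1, 0.684 at Sox2 and 0.791 at Nanog, against 0.698 over the genome. Within wt it was 0.783, 0.687 and 0.808, and within Hox-/- 0.745, 0.69 and 0.765. At Nanog all 4 pairs across genotypes, from 0.77 to 0.809, were above the Hox-/- pair, and at Sox2 the pairs of Hox-/- replicate 2 with wt, 0.7 and 0.715, were above both pairs within a genotype. Both wt ranks were ahead at 21 of the 141 shared regions of the 3 loci, against 19.6% of shared regions over the genome, and both Hox-/- ranks at 36, against 21.5%. At Pou5f1 these were 6 and 13, at Sox2 5 and 13 and at Nanog 10 each. The lists differ in length, and these orders turn on it: with ranks as percentages of the list length, wt was ahead at 36 of the 141 (31.3% over the genome) and Hox-/- at 25 (11.7%). By locus these were 10 and 10, 9 and 7, and 17 and 8. No change between genotypes is read from either count.

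**Figure D4:**
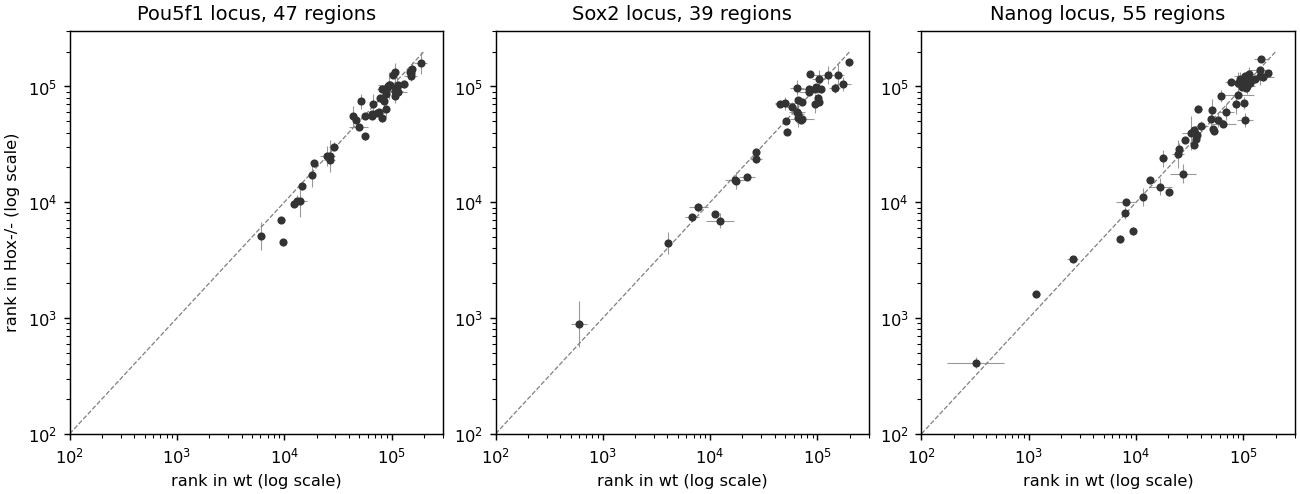
Rank of each shared region in Hox-/- (y axis) against wt (x axis), both on log scales, for the 3 loci; points are geometric means of the 2 libraries, bars run from one library to the other and the dashed line marks equal ranks. Points follow the line from the strongest regions, such as those at ranks 174 to 588 and 501 to 1414, to the weakest.

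The surroundings of the 3 genes differed. Peaks per 100 kb averaged 21.9 over the 4 libraries at Pou5f1, 21.3 at Sox2 and 30.6 at Nanog, higher than at 81.2%, 79.0% and 99.1% of protein-coding genes, whose median was 13.8. Upstream and downstream regions were 30 and 33 at Pou5f1, 22 and 43 at Sox2 and 44 and 34 at Nanog. Shared regions had a median width of 541 bp at Pou5f1, 620 at Sox2 and 671 at Nanog, against 591 over the genome. Genes whose peak numbers over the 4 libraries were most like those of a member, at least 1 Mb away, were Mrps15, Ccdc78 and Csf3r for Pou5f1, Abca3, Iffo2 and Crybg2 for Sox2 and Chst8, Sars2 and Mrps12 for Nanog. They differed from it by 0.5 to 0.75 peaks on average.

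**Figure D5:**
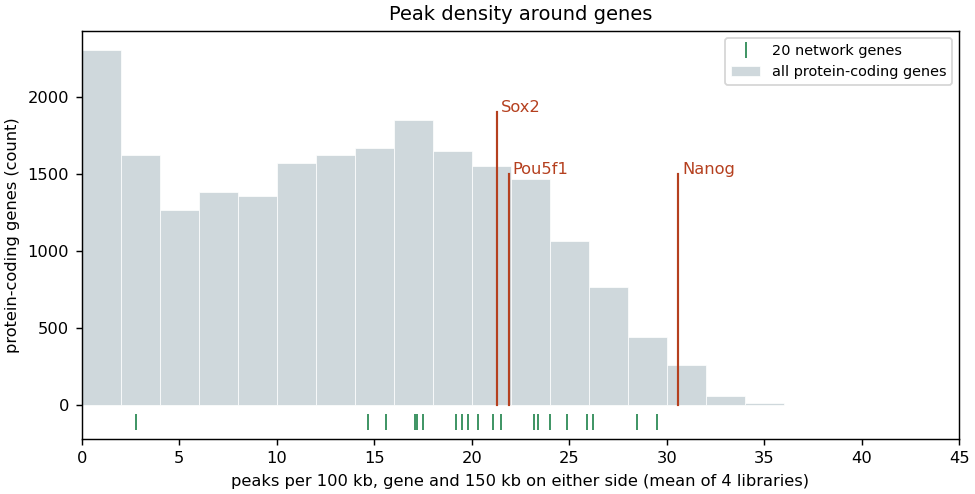
Peaks per 100 kb within 150 kb of each protein-coding gene (mean of the 4 libraries), with the 3 members and the 20 network genes marked. Nanog stands at 30.6, in the upper tail, and Pou5f1 and Sox2 at 21.9 and 21.3, above the median of 13.8.

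Of 20 other genes of the pluripotency network, 18 had a peak within 1 kb of a gene end in all 4 libraries, against 67.1% of all protein-coding genes. None had one in both libraries of a single genotype alone, a class that held 0.640% of genes for wt and 0.187% for Hox-/-. Dppa3, a maternal-effect gene of the naive state, had none, and Nr5a2, a nuclear receptor, had one in wt replicate 1 only, at rank 207319. Within 2.5 kb of an end, all 20 had a peak in every library, these included. The share of all genes at that distance was not taken. Among the 50000 strongest peaks, 14 had one within 1 kb in every library, against 47.0% of all protein-coding genes. The 5 with the best ranks in their worst library were Klf5, Tbx3, Stat3, Klf2 and Utf1. Klf5 and Klf2 encode Krüppel-like factors, and Stat3 carries the LIF signal. Klf5 ranked 696 and 503 in wt and 334 and 374 in Hox-/-. For Stat3 the ranks were 1479 and 2363 against 2719 and 2875, and for Tbx3 2264 and 1802 against 2573 and 2496. Klf2 (3194, 3961, 5027 and 2656) and Utf1 (3810, 5126, 4124 and 4831) had overlapping genotypes.

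The median network gene had 20.7 peaks per 100 kb, and 19 of the 20 were above the median of all genes, the exception being Nr0b1 at 2.79. Within 150 kb, 15 of the 20 had fewer peaks in both Hox-/- libraries than in either wt library and 0 had more, against 48.0% and 2.49% of all genes. As Hox-/- replicate 1 was shallower and both Hox-/- lists were shorter, the part of depth and list length in these counts was not tested.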

How the data were processed

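ATAC-seq of 2 wt and 2 Hox-/- libraries was analysed from 1 peak list per library, so peaks were called per sample. Each deposited line gives an interval, the fold of the summit over its background (a ratio), a −log10 p, a −log10 q (at least 1.30), a score and a summit position, as the authors' caller wrote them. Per the submitters' processing notes, cutadapt 4.8, Bowtie2 2.5.0, Picard 2.18.2, bedtools 2.30.0, MACS2 2.2.9.1 and deepTools 3.5.4 were used with build mm10; their settings are not given in the sources used here. Whether reads were shifted for the transposase is likewise not given.

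Lines were ranked by −log10 p within a list. Peaks were merged into regions at 1 bp of overlap. Read depth is not in the lists. Summit pileup k and background b were solved from fold = (k + 1)/(b + 1) and the Poisson p; every line gave a k within 0.05 of a whole number. The floor is the 0.1% quantile of b, 7.46, 7.02, 4.77 and 7.36 in wt 1, wt 2, Hox-/- 1 and Hox-/- 2. Gene positions and promoters are RefSeq GRCm38.p6, the same assembly as mm10: 30.7% of 43774 gene ends had a summit within 250 bp, against 6.34% to 6.98% when displaced.

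Peak numbers were compared by a two-sided exact permutation test (scipy 1.17.1), with Benjamini-Hochberg adjustment over the 3 loci. Scripts were tested on simulated data. Named are the members, 10 element windows, per locus the 5 shared regions with the best worst rank, every region listed for 1 genotype alone, neighbouring genes, 5 network genes and 3 similar genes per member. Members, windows and lists were chosen with earlier results of these data known. Alternatives covered peak thresholds, overlap, window size, ranking, the replicate number as a block and each library left out. Sequence was at hand only around annotated starts, so enhancer sequences are not shown.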

Additional observations from a re-analysis of the deposited data

How the results depend on the processing

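Of 152 alternative values, 6 reversed the sign of a difference and 46 others moved. The remaining 100 either lay near the reported value or, for differences in peaks, did not reverse whatever their size: with the 190000 strongest peaks per library these were −2.0 at Pou5f1, 0.0 at Sox2 and −0.5 at Nanog, and with a −log10 q of at least 5 they were −6.0, −7.5 and −8.5. Within 300 kb they were −14.5, −7.0 and −5.5. Both Hox-/- libraries lay below both wt libraries (exact permutation p 0.33) at all 3 loci with that q, at Pou5f1 also within 50 kb (−7.5) and 300 kb, and with overlapping lines merged at Sox2 (−3.5) and Nanog (−4.5). Of all genes, 48.0% were in this class in the main setting and 56.0% with that q. The share was not taken for the other windows or with merged lines. The differences in peaks between genotypes were those that changed sign: with the 50000 strongest peaks per library they were 0.5 at Pou5f1, 1.5 at Sox2 and 1.0 at Nanog, and with a window of 50 kb 0.5 at Nanog. Leaving out 1 library at a time gave −10.5 to −0.5 at Pou5f1, −11.0 to 1.0 at Sox2 and −9.0 to 1.0 at Nanog; the 2 positive values, both 1.0, arose without Hox-/- replicate 1. With fewer peaks considered, fewer regions were shared by all libraries: 13, 11 and 22 (Pou5f1, Sox2 and Nanog) for the 50000 strongest (68.6% of all regions under that setting were shared), and 23, 18 and 24 within 50 kb. Within 300 kb there were 86 at Pou5f1.

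Regions in wt only numbered 0, 1 and 1 for the 50000 strongest peaks (2.5% of all regions under that setting). They were 1 at Pou5f1 and 1 at Sox2 both for the 190000 strongest (2.65%) and for a −log10 q of at least 5 (4.42%). They were 4 at Pou5f1 when a peak had to cover at least 50% of the region (4.62%), 8 there within 300 kb, and 1 each at Sox2 and Nanog within 50 kb. At the other window sizes the shares over all regions are those of the main setting, 3.83% for wt only and 1.23% for Hox-/- only. Regions in Hox-/- only numbered 1, 0 and 1 for the 50000 strongest peaks (2.26%), 1 at Pou5f1 and 2 at Sox2 within 300 kb, 2 at Sox2 for the 190000 strongest (2.07%), and 0 at Sox2 for a −log10 q of at least 5 (1.00%) and within 50 kb. Ranked by fold, 3 elements were strong in all libraries. Leaving out each library gave 47 to 49, 40 to 42 and 55 to 58 shared regions, 3 to 5, 3 to 7 and 5 to 7 in wt only, and 0 to 6, 2 to 3 and 0 to 5 in Hox-/- only; with 1 library fewer, fewer lists need to hold or lack a region. The share over all regions was not taken with a library left out, so these counts have no background beside them. Agreement between genotypes ran from 0.721 to 0.744, 0.661 to 0.708 and 0.774 to 0.809. Percent ranks were compared, and the following was done, after seeing the data: leaving out each library gave 8 strong elements and 18 network genes each time. With the replicate number as a block, the differences were −5.5, −5.0 and −4.0 peaks, which balanced blocks cannot change. The agreement was 0.732, 0.698 and 0.79. Same-numbered libraries did not deviate together in rank (correlation 0.0036 over 122787 shared regions). Whether they were prepared together is not given in the sources used here, and this correlation cannot tell.

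With 2 libraries per genotype the exact permutation test cannot pass 0.05. The part of depth in the calls of weak regions was not tested.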

Other observations

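Some neighbours of Pou5f1 and Nanog had a peak at a gene end and others had none. Gdf3, a TGF-beta family ligand expressed in pluripotent cells, had peaks no more than 1 kb from an end, at ranks 51315 and 49486 in wt and 46923 and 48573 in Hox-/-. Slc2a3 ranked 52591 and 51534 in wt and 39830 and 45991 in Hox-/-. C3ar1, a complement receptor, had no such peak in any library, and nor did Dppa3 beside Nanog or Sfta2 beside Pou5f1. Dppa3 was nevertheless the protein-coding gene nearest to the strong region with ranks of 2291 to 3281 described above.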
